A study of Rattus norvegicus with 9 samples.

Results

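The miR-10, miR-99/100 and miR-125 families are closely related microRNAs (miRNAs), and 7 of their members were measured in rat soleus: rno-miR-10a, rno-miR-10b, rno-miR-99a, rno-miR-99b, rno-miR-100, rno-miR-125a and rno-miR-125b, named from here without the species prefix. They were taken by probe name from the 334 miRNA probes of each array, and all 7 were among the 178 probes bright enough to be tested. The soleus, a postural hindlimb muscle, came from male Sprague-Dawley rats aged 6 months. Hindlimbs had been unloaded by tail suspension, which induces atrophy, for 2 days (HS-2days) or 7 days (HS-7days), and control rats made up the remaining group. Each group had 3 arrays, hybridised in 1 colour with Cy5 from 5 µg of total RNA whose mean RNA integrity number was 8.4 ± 0.5. The labels do not say whether the replicates of a group were different rats, and the p-values thus speak only of sample-to-sample spread, which may be technical.

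A miRNA guides a repressor complex to messenger RNAs, mainly through its seed, bases 2 to 8 from the 5′ end. The miR-10 genes lie inside the Hox clusters, whose transcription factors pattern the body axis, while miR-99, miR-100 and miR-125 genes lie in clusters with let-7. In mammalian cells miR-99 and miR-100 are known to repress mTOR and the IGF-1 receptor, and in mouse myoblasts miR-125b is known to repress IGF2, all of them parts of the growth pathway that sets muscle mass.

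The target sequences are shown because the families are defined by their seeds and because some members differ by a single base. They are those that the arrays were designed against, 5′ to 3′, with the seed in capitals:
miR-10a: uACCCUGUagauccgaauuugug
miR-10b: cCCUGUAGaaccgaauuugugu
miR-99a: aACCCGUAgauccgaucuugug
miR-99b: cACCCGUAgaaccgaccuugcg
miR-100: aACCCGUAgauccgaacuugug
miR-125a: uCCCUGAGacccuuuaaccugug
miR-125b: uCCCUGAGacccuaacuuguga

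MiR-99a, miR-99b and miR-100 share 1 seed, and miR-125a and miR-125b share another. MiR-351 was the only other probe with any of these seeds, that of miR-125. Aligned with miR-10a, the listed miR-10b starts 2 bases later. With the 2 preceding hairpin letters it reads uACCCUGUagaaccgaauuugugu, and bases 2 to 8 of that form equal the seed of miR-10a. MiR-10a and miR-10b differ at 1 of the 21 bases over which they overlap (U12A, counted from 1 at the 5′ end of miR-10a), and miR-99a and miR-100 at 1 of 22 (U16A, counted in miR-99a). MiR-125a and miR-125b share their first 13 bases and are separated by 4 single-base edits. Probes this alike may bind each other's targets, which was not tested. Brightness is not comparable between probes, so differences of relatives within an array are used only to compare groups. No probe other than the 7 members came within 5 edits of a member, the closest being miR-351 to miR-125a with 6. RefSeq (GRCr8) held a mature entry for 6 of the 7 members, and 5 were identical to the array's target, while its miR-125a carried 1 further a at the 3′ end.

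In RefSeq's GRCr8 annotation the hairpins form 2 kinds of locus. Mir10a (chr10:81779709-81779818) lies 1271 bases from Hoxb4, and Mir10b (chr3:80035859-80035967) lies within the annotated span of Hoxd4. Mir99b (chr1:67350064-67350133), Mirlet7e and Mir125a (chr1:67350675-67350759) lie side by side, with gaps of 95 and 353 bases. Mir99a (chr11:29687392-29687472) lies 639 bases from Mirlet7c1 and 45.1 kb from Mir125b2 (chr11:29732572-29732659). Mir100 (chr8:50798295-50798374) lies 51.7 kb from Mir125b1 (chr8:50850036-50850122). A single mature miR-125b is made from both Mir125b1 and Mir125b2, and its probe reads their sum.

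All 6 striated muscle markers on the list (miR-208, miR-499, miR-206, miR-133b, miR-133a and miR-1) were detected and tested. Their summed linear normalized brightness was 155775 to 167601 after 2 days, 159368 to 162748 after 7 days and 163138 to 168194 in controls. The 7-day sums lay below the control sums by a narrow margin (162748 against 163138), and no marker of this list passed the threshold. At 7 days 2 of the 6 lay wholly below control, against 12.4% (22 of 178) of all probes. After quantile normalization miR-206 and miR-1 hardly varied, each with SDs of 0.0053 at 2 days, 0.021 at 7 days and 0.0091 in controls. MiR-208 was dim (mean log2 6.12 in controls). Because the normalization leaves such bright probes little room to vary, these sums cannot show whether muscle content changed. Markers of other cells were present as well. The 6 tested smooth muscle and fibroblast markers summed to 22360 to 31933 on 2-day arrays, 21922 to 27740 on 7-day arrays and 27115 to 32614 on control arrays. All 6 had negative log2 fold changes against control at both times, with none past the threshold. Values above 0 were found for 39.9% (71 of 178) of all probes at 2 days and 41.6% (74 of 178) at 7 days. At 7 days 2 of the 6 lay wholly below control. In limma's test 2 had an unadjusted p under 0.05 at 7 days, against 14% (25 of 178) of all probes. Of blood markers 3 of 6 on the array were tested and of nerve markers 4 of 7, while miR-144, miR-142-3p, miR-142-5p, miR-9, miR-124a and miR-219 were too dim. The tested blood markers summed to 6372 to 9165 after 2 days, 7352 to 7800 after 7 days and 7163 to 9205 in controls. The nerve markers summed to 3291 to 7107 after 2 days, 5288 to 6068 after 7 days and 5180 to 7160 in controls. Both sets of sums overlapped between groups. The brightest probes dominate them, miR-150 for blood (mean log2 12.50 in controls) and miR-128a and miR-128b for nerve (11.50 and 11.49). The overlap thus says little about the dimmer markers. At 7 days the red cell miRNA miR-451 was lower on all 3 arrays than on any control array (log2 fold change -0.92 ± 0.35, adjusted p = 0.283 in limma's test). The other tested blood markers had 1 value below 0 and 1 above. MiR-338 of the nerve list was higher on all 3 (0.46 ± 0.13, adjusted p = 0.227), but it was dim (mean log2 6.57, against 6.11 in controls). The other 3 tested nerve markers had values below 0. Of all probes 12.4% (22 of 178) lay wholly below control at 7 days and 11.2% (20 of 178) wholly above. In whole muscle, fewer cells of a type and less RNA per cell cannot be told apart, and the part of these other cells in the members' values was not tested.

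No member passed the threshold of an adjusted p of 0.05 after 2 or 7 days of suspension, where 0.562% (1 of 178) and 0% (0 of 178) of all tested probes did. MiR-10a came nearest. It was about 1.7 times as bright after suspension as in control soleus, and its suspended and control arrays did not overlap at either time. The other 6 members lay within 0.22 log2 units of control at both times, and each of their intervals included 0. Of the 7 members 1, miR-10a, had an unadjusted p under 0.05 at each time, against 6.74% (12 of 178) of probes at 2 days and 14% (25 of 178) at 7 days; 3.93% (7 of 178) and 7.3% (13 of 178) had such a p and were higher after suspension. Tests are limma's moderated test on log2 intensity, two-sided, with Benjamini-Hochberg adjustment over the 178 probes, and errors of log2 fold changes are its standard errors.

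**Figure D1:**
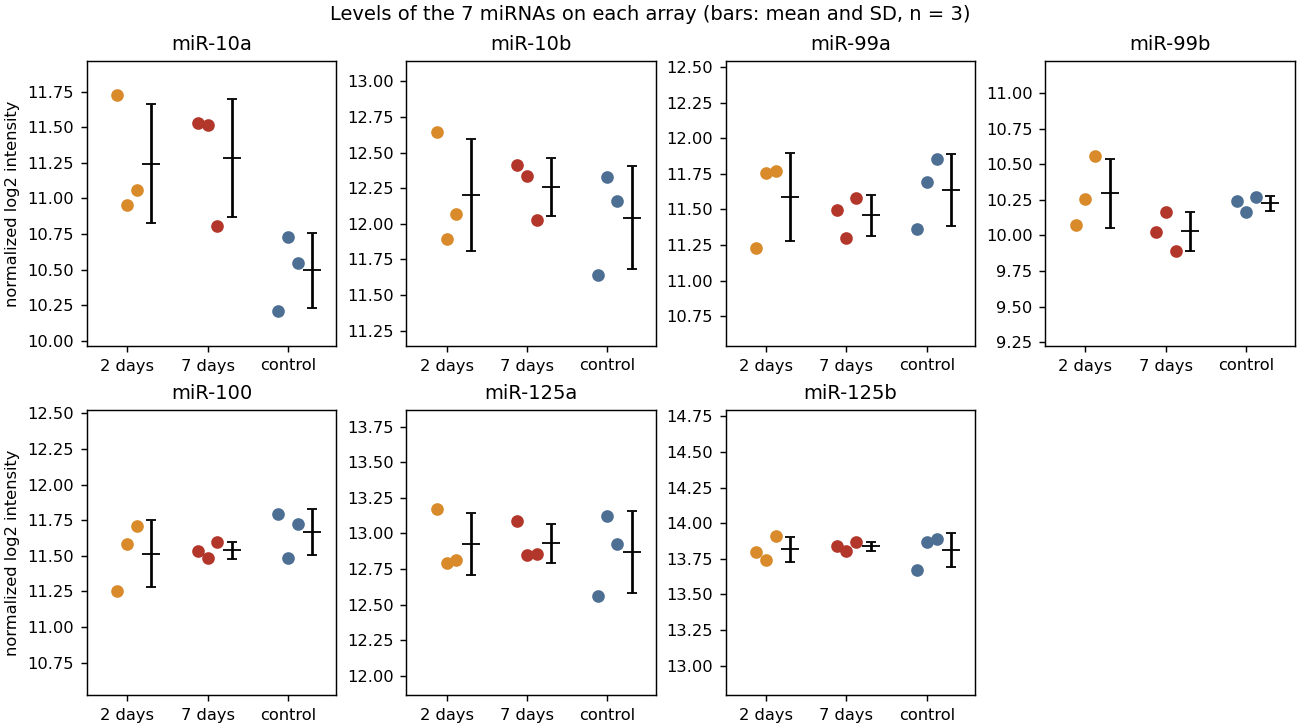
Normalized log2 intensity of each miRNA (vertical axes, all spanning the same range of log2 units) on the 9 arrays, by group (horizontal axes). Points are arrays and bars are the mean and SD of 3. The 3 control arrays of miR-10a lie between 10.21 and 10.73, below all 6 suspended arrays, while the groups of the other 6 miRNAs overlap.

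MiR-10a, the Hox-encoded member beside Hoxb4, had normalized log2 intensities of 11.72, 10.95 and 11.06 on the 2-day arrays, 11.53, 11.52 and 10.81 on the 7-day arrays, and 10.21, 10.73 and 10.55 on the control arrays. Every suspended array was above every control array, though the lowest suspended array, 7-day replicate 3, exceeded the highest control by little. Before normalization the median of its 9 repeat spots ran from 1055 to 1684 in controls. It ran from 2151 to 2412 after 2 days and from 2595 to 3343 after 7 days, so the raw groups were apart too. At 7 days this was not particular to miR-10a, since raw medians of every other member except miR-99a also lay above all controls. For miR-100 they were 3041 to 4084 at 7 days, against 2668 to 2971 in controls. At 2 days the raw medians of the other members overlapped those of controls. Group means were 11.24 ± 0.42 after 2 days, 11.28 ± 0.41 after 7 days and 10.49 ± 0.27 in controls (SD, n = 3 each). The log2 fold change against control was 0.75 ± 0.27 at 2 days (95% interval 0.12 to 1.38; 1.68-fold) and 0.79 ± 0.27 at 7 days (0.16 to 1.43; 1.73-fold). Limma's p was 0.0262 at 2 days, adjusted to 0.583, and 0.0209 at 7 days, adjusted to 0.266, which placed it at rank 8 and rank 14 of the 178 probes. Groups in which every suspended array exceeded every control were found for 2.25% (4 of 178) of probes at 2 days and 11.2% (20 of 178) at 7 days, and groups apart in the other direction, which no member showed, for 5.62% (10 of 178) and 12.4% (22 of 178). Both comparisons use the same 3 control arrays.

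The endothelial markers were miR-126 and its partner strand miR-126*. Their summed linear level was 17840 to 19431 on 2-day arrays, 20690 to 22070 on 7-day arrays and 18108 to 19092 on control arrays, so the 7-day arrays lay above the controls and the 2-day arrays overlapped them. MiR-126 itself had a log2 fold change of -0.071 ± 0.075 at 2 days and 0.0017 ± 0.075 at 7 days, while miR-126* had 1.58 ± 0.70 and 2.86 ± 0.70 (adjusted p = 0.715 and 0.138 in limma's test). The part of endothelial cells in the values of miR-10a was not tested.

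The size for miR-10a at 2 days depended on how arrays were scaled. Centring each array on its median gave 0.53 with an interval of -0.27 to 1.34, against 0.76 with no scaling. Without any scaling its 7-day value was 1.19 with an adjusted p of 0.0132 in limma's test, the only setting in which a member passed the threshold. In that setting the median of all 178 probes was itself 0.14 above control, and miR-10a lay 1.05 above that median. The authors' deposited table, scaled by them, lists miR-10a at 3268, 2222 and 1858 on the 2-day arrays, 2781, 3033 and 1835 on the 7-day arrays, and 1142, 1761 and 1549 on the control arrays, and here too no suspended array fell below a control. Over 25 alternative settings the log2 fold change ran from 0.52 to 0.91 at 2 days and from 0.64 to 1.19 at 7 days.

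**Figure D2:**
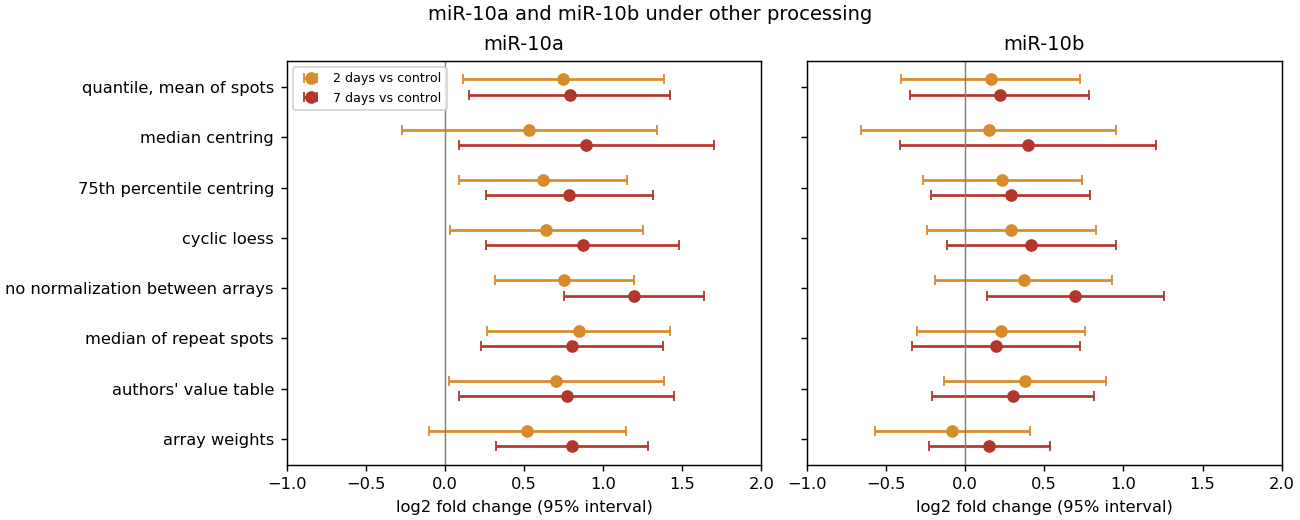
Log2 fold change against control (horizontal axes) of miR-10a (left) and miR-10b (right) after 2 and 7 days, under 8 ways of processing the same arrays (rows); bars are 95% intervals of the fit. All miR-10a points lie above 0, and those of miR-10b lie nearer 0, with 1 below it.

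MiR-10b, the relative encoded at Hoxd4, had 12.65, 11.90 and 12.07 on the 2-day arrays, 12.41, 12.34 and 12.03 on the 7-day arrays, and 11.64, 12.33 and 12.16 on the control arrays. Control replicate 1 was the lowest of the 9 for miR-10b as it was for miR-10a, and the groups overlapped. The log2 fold change was 0.16 ± 0.24 at 2 days (95% interval -0.40 to 0.73, adjusted p = 0.974 in limma's test) and 0.22 ± 0.24 at 7 days (-0.35 to 0.78, adjusted p = 0.902). Without control replicate 1 these values were -0.046 at 2 days and 0.012 at 7 days. Those of miR-10a were then 0.60 (95% interval -0.11 to 1.32) and 0.64 (-0.071 to 1.36), so both intervals included 0. The 2-day interval of miR-10a also included 0 without control replicate 3 (-0.020 to 1.57) or without 2-day replicate 1 (-0.079 to 1.12).

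A scale factor common to both probes on an array cancels in the difference of miR-10a and miR-10b, but an effect that varies with brightness does not. That difference averaged -0.96 ± 0.047 after 2 days, -0.98 ± 0.21 after 7 days and -1.55 ± 0.10 in controls (log2 units, SD, n = 3 each). The 2-day arrays ran from -1.01 to -0.93, the 7-day arrays from -1.22 to -0.82 and the controls from -1.61 to -1.43, so suspended and control arrays did not overlap. The difference between groups was 0.59 at 2 days and 0.57 at 7 days, each with an exact two-sided permutation p of 0.1, the smallest that 3 arrays against 3 can give, and 0.45 after adjustment over the 9 such tests. The kind of normalization mattered at 2 days. There the value was 0.39 with median centring (exact permutation p = 0.2), 0.35 with cyclic loess (exact permutation p = 0.3) and 0.33 in the authors' deposited table (exact permutation p = 0.4). In none of these were the 2-day arrays wholly apart from the controls. Median centring shifts all log2 values of an array alike, so it leaves this difference as it was without normalization. At 7 days it stayed between 0.45 and 0.70 in all 20 alternatives. Between 7 and 2 days the difference was -0.014 (exact permutation p = 1).

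**Figure D3:**
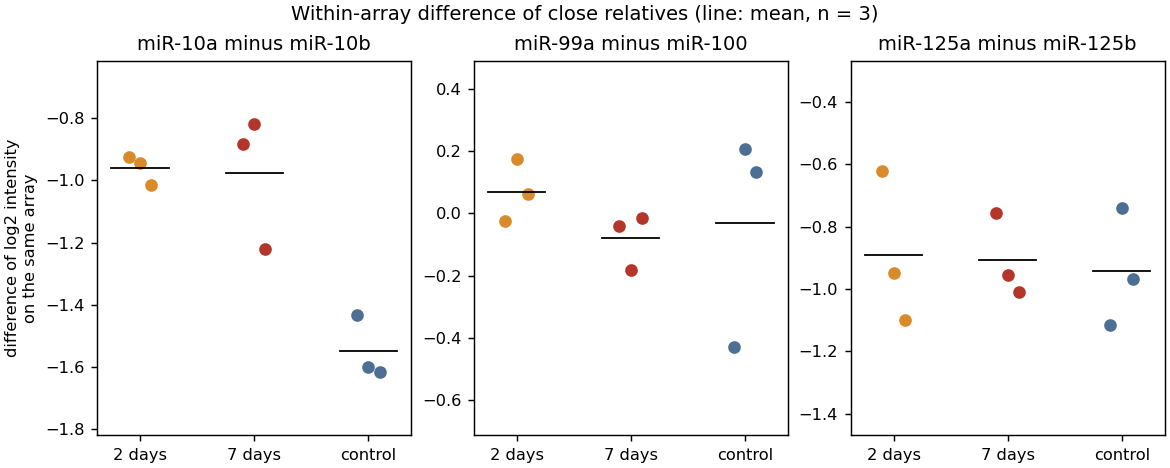
Difference of log2 intensity between 2 close relatives on the same array (vertical axes) by group; points are arrays and lines are means of 3. For miR-10a minus miR-10b all 6 suspended arrays lie above the 3 controls, which lie between -1.61 and -1.43, and for the other pairs the groups overlap.

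MiR-99a, a member of the mTOR-repressing group encoded beside let-7c, had 11.23, 11.76 and 11.77 on the 2-day arrays, 11.49, 11.30 and 11.58 on the 7-day arrays, and 11.36, 11.69 and 11.86 on the control arrays. Its groups overlapped, and the log2 fold change was -0.052 ± 0.19 at 2 days and -0.18 ± 0.19 at 7 days (adjusted p = 0.977 and 0.895 in limma's test). MiR-100, which differs from it by 1 base, had 11.25, 11.58 and 11.71 on the 2-day arrays, 11.54, 11.48 and 11.60 on the 7-day arrays, and 11.79, 11.48 and 11.73 on the control arrays. It too overlapped between groups, with -0.15 ± 0.14 at 2 days and -0.13 ± 0.14 at 7 days (adjusted p = 0.921 and 0.895 in limma's test). The 7-day arrays of miR-100 lay close together (SD 0.059, n = 3), against SDs of 0.23 at 2 days and 0.16 in controls.

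MiR-99b, which has the same seed and sits beside let-7e and miR-125a, had spot medians of 700 to 1503 after 2 days, 1174 to 1355 after 7 days and 889 to 1109 in controls. Normalized, it had 10.07, 10.25 and 10.56 on the 2-day arrays, 10.03, 10.17 and 9.89 on the 7-day arrays, and 10.24, 10.16 and 10.27 on the control arrays. The 7-day arrays were the lower ones, with 1 of 3 inside the control range. The log2 fold change was 0.070 ± 0.13 at 2 days and -0.20 ± 0.13 at 7 days, with adjusted p of 0.974 and 0.729 in limma's test. Between 7 and 2 days it was -0.27 ± 0.13 (95% interval -0.58 to 0.041, adjusted p = 0.932 in limma's test), the furthest from 0 that any of the 7 members reached in that comparison.

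The within-array difference of miR-99a and miR-100 averaged 0.070 ± 0.10 after 2 days, -0.079 ± 0.089 after 7 days and -0.031 ± 0.35 in controls (SD, n = 3 each). Against control it differed by 0.10 at 2 days and -0.049 at 7 days (exact permutation p = 0.9 and 1). The wide control spread came from replicate 1, at -0.43, and in that array 2 of the 9 miR-99a spots were very dim.

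MiR-125a had 13.17, 12.79 and 12.81 on the 2-day arrays, 13.09, 12.85 and 12.86 on the 7-day arrays, and 12.56, 13.12 and 12.92 on the control arrays. The control arrays spanned most of the range, and the log2 fold change was 0.057 ± 0.17 at 2 days and 0.061 ± 0.17 at 7 days (adjusted p = 0.977 and 0.95 in limma's test). MiR-125b, the repressor of IGF2 in mouse myoblasts, had 13.79, 13.74 and 13.91 on the 2-day arrays, 13.84, 13.80 and 13.87 on the 7-day arrays, and 13.67, 13.86 and 13.89 on the control arrays. Its log2 fold change was 0.0054 ± 0.088 at 2 days (95% interval -0.20 to 0.21) and 0.027 ± 0.088 at 7 days (-0.18 to 0.23), with adjusted p of 0.977 and 0.95 in limma's test. The upper ends of these intervals correspond to 1.16-fold at 2 days and 1.17-fold at 7 days. Quantile normalization narrows the spread of bright probes such as miR-125b, whose spot medians ran from 13086 to 15779 after 2 days, from 15341 to 16679 after 7 days and from 12021 to 15089 in controls. The difference of miR-125a and miR-125b within arrays differed by 0.051 at 2 days and 0.034 at 7 days against control (exact permutation p = 0.7 and 0.9).

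**Figure D4:**
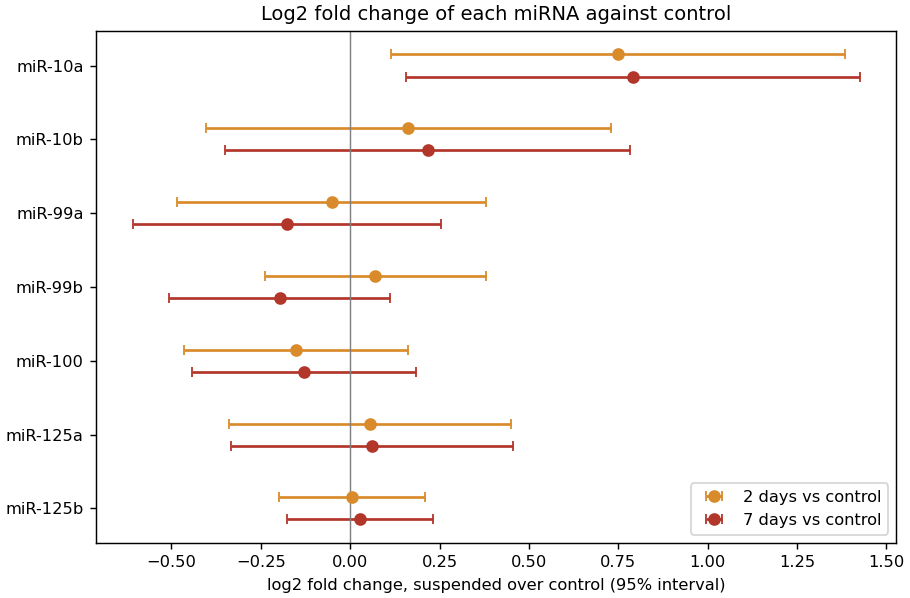
Log2 fold change of each miRNA, 2 or 7 days of suspension over control (horizontal axis), with the 95% interval of the fit. The intervals of miR-10a start at 0.12 and 0.16, and those of the other 6 miRNAs include 0.

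Between 7 and 2 days of suspension no member passed the threshold, where 0% (0 of 178) of all probes did, and the log2 fold changes of the 7 members ran from -0.27 to 0.055 with adjusted p of 0.932 to 0.994 in limma's test. None of them had an unadjusted p under 0.05 (5.62% of all probes, 10 of 178, all higher at 7 days) or groups that did not overlap (5.06% of probes higher at 7 days, 1.12% lower), and 5 of the 7 had a value above 0, against 56.2% of all probes. In the F test of any difference between the groups miR-10a had an adjusted p of 0.395 (rank 16), and the other members' adjusted p was 0.814 to 0.974, where 0% (0 of 178) of all probes passed. Of the 7 members 5 had a log2 fold change above 0 at 2 days, against 39.9% of all probes, and 4 at 7 days, against 41.6%. Their median was 0.057 at 2 days and 0.027 at 7 days, beside -0.050 and -0.030 over the 178 probes.

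The dimmest array was 2-day replicate 1, with 149 probes detected, against 157 to 204 on the others. Its median brightness over the tested probes was 166, against 231 to 392. After normalization this array had the highest values of miR-10a, miR-10b and miR-125a and the lowest of miR-99a and miR-100. Without it miR-10a had 0.52 at 2 days. The part of its dimness in these values was not tested. Within arrays, the repeat spots showed where single values were less sure. Of 567 member spots 7 had under 50% of the median of their probe on that array, and they lay on 2 arrays. On 2-day replicate 2 the spot of miR-10a at 392, against a median of 2302, was 1 of 5 such spots, the others belonging to miR-10b, miR-100, miR-125a and miR-125b, and all 5 lay in the same spot column. That array had 17 such spots among 711 of all bright probes, against 0 to 6 on the others. On control replicate 1 the spots of miR-99a at 436 and 652, against a median of 3193, shared a column as well. Taking the median of repeat spots in place of the mean gave miR-10a 0.85 at 2 days and 0.80 at 7 days (adjusted p = 0.284 and 0.180 in limma's test), and miR-99a -0.21 and -0.34 (adjusted p = 0.978 and 0.543).

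**Figure D5:**
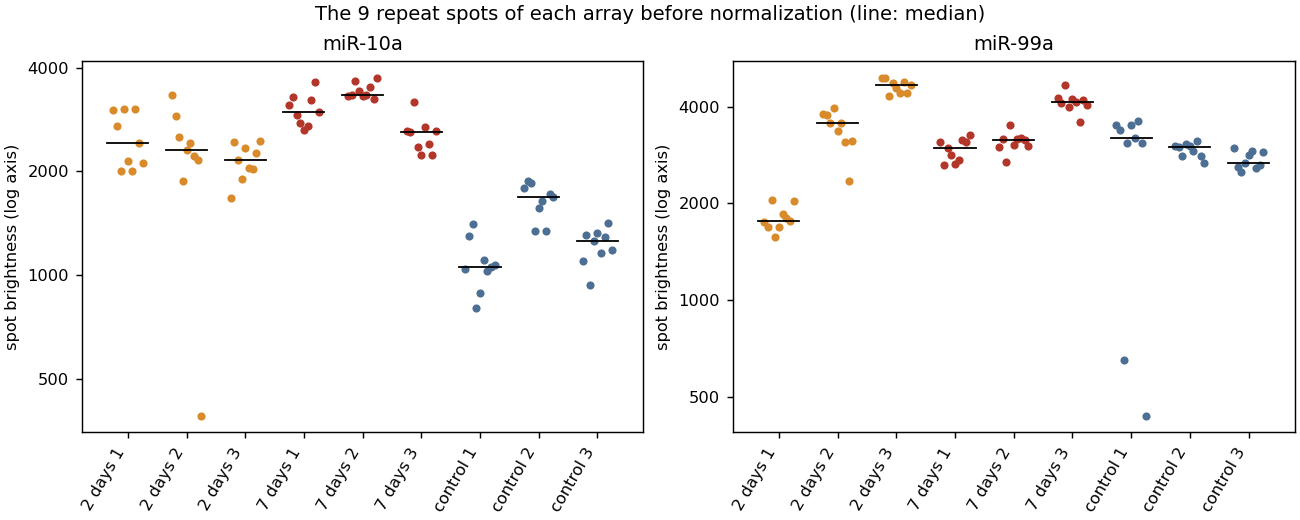
Brightness of each of the 9 repeat spots before normalization (vertical log axes) on each array (horizontal axes) for miR-10a (left) and miR-99a (right); lines are medians. Single dim spots stand apart on 2-day replicate 2 for miR-10a, at 392, and on control replicate 1 for miR-99a, at 436 and 652.

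Across the 9 arrays the members most alike did not all share a seed. These correlations are descriptions over arrays that share a normalization, and no test was made of them. MiR-10b went with miR-125a (Pearson's r = 0.92, Spearman's rho = 0.83) and with miR-10a (r = 0.81, rho = 0.73). MiR-100 ran against all 3, with r of -0.79 to miR-10a, -0.84 to miR-10b and -0.77 to miR-125a. On 2-day replicate 1, the dimmest array, miR-100 had its lowest value of the 9 and those 3 had their highest. The r of miR-100 with miR-99a, 1 base away, was 0.52, and with miR-99b 0.47, while miR-125a and miR-125b gave 0.49. The 2 arrays farthest from the median of the first-named probe of each pair were then left out. There r was 0.76 for miR-10b and miR-125a, 0.48 for miR-10a and miR-10b, and, for miR-100, -0.50 with miR-10a, -0.54 with miR-10b and -0.44 with miR-125a. All but the first of these rest in good part on the arrays left out, which can differ by pair. Other pairs rose, such as miR-125b with miR-99a from 0.52 to 0.96. With group means removed and all 9 arrays kept, 2-day replicate 1 among them, r was 0.93 for miR-10b and miR-125a and 0.93 for miR-10a and miR-10b. For miR-100 it was then -0.80 with miR-10a, -0.83 with miR-10b and -0.80 with miR-125a. With the log2 median of the empty spots of each array, a measure of background, r was 0.61 for miR-99a, 0.50 for miR-99b, 0.28 for miR-100, -0.27 for miR-10a, -0.46 for miR-10b and -0.28 for miR-125a.

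Among the 171 other tested probes, the profile nearest to miR-100 was that of miR-133a, a muscle miRNA (r = 0.95), followed by miR-22* (r = 0.94). MiR-10a was nearest to miR-365 (r = 0.87) and miR-450 (r = 0.83), and miR-10b to miR-503 (r = 0.89) and miR-92 (r = 0.88). MiR-125a was nearest to miR-28 (r = 0.87) and miR-150 (r = 0.83), and miR-99a to miR-143 (r = 0.85), a smooth muscle and fibroblast marker, and miR-345 (r = 0.81). For miR-125b the nearest were miR-25 (r = 0.84) and miR-424 (r = 0.80), and for miR-99b miR-381 (r = 0.70) and miR-185 (r = 0.67). Leaving out the 2 farthest arrays took the r of miR-125b with miR-25 to 0.37 and with miR-424 to 0.22, and that of miR-99b with miR-381 to 0.038, while miR-100 and miR-133a had 0.87.

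The let-7 miRNAs listed as sharing clusters with the family had values near 0. Let-7e, between Mir99b and Mir125a, had a log2 fold change of 0.15 ± 0.14 at 2 days and 0.12 ± 0.14 at 7 days. Let-7c, beside Mir99a, had 0.024 ± 0.10 and -0.066 ± 0.10. Let-7a, for which no hairpin position was at hand, had 0.061 ± 0.11 and -0.023 ± 0.11. None of the 3 passed the threshold at either time (adjusted p of 0.919 to 0.977 in limma's test). The 3 neighbours miR-99b, let-7e and miR-125a thus stood at 0.070, 0.15 and 0.057 at 2 days and at -0.20, 0.12 and 0.061 at 7 days.

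Of the other Hox-encoded miRNAs miR-196a and miR-196b were on the array. MiR-196b was dim, with spot medians of 104 to 257 after 2 days, 156 to 224 after 7 days and 82.1 to 134 in controls. It had normalized log2 means of 7.49 after 2 days, 7.60 after 7 days and 7.13 in controls, with log2 fold changes of 0.36 ± 0.23 and 0.46 ± 0.23 (adjusted p = 0.873 and 0.481 in limma's test). MiR-196a had -0.093 ± 0.20 at 2 days and -0.0058 ± 0.20 at 7 days (adjusted p = 0.977 and 0.995). MiR-351, which carries the miR-125 seed, had -0.14 ± 0.15 and -0.21 ± 0.15 (adjusted p = 0.974 and 0.800). Of 18 miRNAs of other families listed as regulators of IGF and mTOR signalling, 15 were on the array and tested. At each time 5 had a log2 fold change above 0 and 10 below, where 39.9% of all probes were above 0 at 2 days and 41.6% at 7 days. None passed the threshold, the lowest adjusted p in limma's test being 0.0599 at 2 days and 0.0874 at 7 days. At 2 days 2 lay wholly below control (5.62% of all probes). At 7 days 2 lay wholly below (12.4% of all probes) and 2 wholly above (11.2%). The median of the 15 was -0.066 at 2 days and -0.11 at 7 days, beside -0.050 and -0.030 over all 178 probes.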

How the data were processed

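Rat soleus miRNAs were measured on 9 arrays, 3 per group, designed, per the labels, from miRBase 9.0. Each deposited scanner file lists, per the file headers, a linear mean intensity for each of its 3968 spots. The image software and any background step are not given in the sources used. The authors' deposited value table holds intensity for 162 probes and served only as an alternative.

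Analysis used R 4.3.3 with limma 3.58.1. Brightness was corrected by normexp with an offset of 50 on all spots, control spots were left out, log2 values were quantile normalized and the 9 repeat spots averaged. Detection required over 0.5 of a probe's spots to exceed the 95th percentile of the array's 614 empty spots. Tests covered the 178 probes detected throughout at least 1 group. A model of group means over the 9 arrays was fitted by lmFit and eBayes (two-sided, 7.78 total degrees of freedom, Benjamini-Hochberg over the 178 probes, threshold 0.05). Within-array differences of relatives were compared by exact two-sided permutation of arrays, adjusted over 9 tests. The number of arrays limits precision: a log2 fold change had a median standard error of 0.166. The fitting script was tested on simulated data. Alternatives changed the background step, normalization, averaging, detection filter, samples in the fit, array weights and a block for the replicate number. Named beyond the members were the 2 tested probes of highest Pearson r with each, the clustered let-7 and other Hox-encoded miRNAs, and the cell type markers. The members and lists were chosen with earlier results of these data known. No slide or scan batch is given in the files.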

Additional observations from a re-analysis of the deposited data

How the results depend on the processing

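No result for a member passed the threshold except without normalization between arrays, where the count of members past it was 1 at 7 days, miR-10a (1.19, adjusted p = 0.0132 in limma's test), and 1 in the F test, beside 10 of 178 probes called at 7 days and 4 in the F test; over all alternatives its 7-day adjusted p ran from 0.0132 to 0.724. The cause was not tested. MiR-10a kept a positive sign against control in all 25 alternatives, 9 of which left out 1 array, and miR-10a minus miR-10b in all 20 of its own. With the replicate block in the fit miR-10a gave 0.75 (adjusted p = 0.621) and 0.79 (adjusted p = 0.385), and the replicate block changed no call; 3 of 9 correlations of same-numbered arrays exceeded 0.1 (range -0.40 to 0.35), so the numbers were not taken as pairs. Over all tested probes the calls ran from 0 to 4 at 2 days, from 0 to 10 at 7 days and from 0 to 6 in the F test over the alternatives, against 1, 0 and 0 as reported. Array weights reached the top of each range (4, 10 and 6, no member among them). The 10 at 7 days were matched without normalization between arrays, there with miR-10a among them. Without HS-2days replicate 1 the calls were 4, 3 and 3, with no member. Of 525 recomputed log2 fold changes 452 kept their sign and their side of the threshold and 72 changed sign, all of these of values that passed no test, and 22 of 180 within-array differences changed sign. With 75th percentile centring the values of opposite sign were miR-125b -0.10 and miR-99a 0.080 at 2 days, miR-125b -0.18 at 7 days, miR-125a -0.093, miR-125b -0.079 and miR-10a minus miR-10b 0.11 between 7 and 2 days. With array weights the values of opposite sign were miR-10b -0.080, miR-125a -0.10, miR-125b -0.016 and miR-99a 3.2e-05 at 2 days, miR-125a -0.018 and miR-125b -0.014 at 7 days, miR-100 -0.080 between 7 and 2 days. In the authors' deposited table with a pseudocount of 1 the values of opposite sign were miR-100 0.031, miR-99b -0.013 and miR-99a minus miR-100 -0.11 at 2 days, miR-100 -0.11, miR-10b -0.076, miR-125a -0.16, miR-125b -0.012 and miR-10a minus miR-10b 0.14 between 7 and 2 days. With a pseudocount of 50 on that authors' deposited table the values of opposite sign were miR-100 0.031, miR-99b -0.013 and miR-99a minus miR-100 -0.11 at 2 days, miR-100 -0.11, miR-10b -0.075, miR-125a -0.16, miR-125b -0.012 and miR-10a minus miR-10b 0.14 between 7 and 2 days. With cyclic loess the values of opposite sign were miR-99a 0.12 and miR-99b -0.0096 at 2 days, miR-100 0.055 and miR-99a 0.051 at 7 days, miR-125a -0.014 and miR-10a minus miR-10b 0.11 between 7 and 2 days. With median centring the values of opposite sign were miR-125b -0.19 and miR-99b -0.080 at 2 days, miR-100 0.057, miR-125b -0.073 and miR-99a 0.055 at 7 days, miR-99a 0.060, miR-99b 0.053 and miR-10a minus miR-10b 0.11 between 7 and 2 days. With the median of repeat spots the values of opposite sign were miR-99a minus miR-100 -0.056 at 2 days, miR-10a -0.043, miR-10b -0.031, miR-125a -0.074 and miR-125b -0.024 between 7 and 2 days. Without normalization between arrays the values of opposite sign were miR-100 0.084 and miR-99a 0.22 at 2 days, miR-100 0.36, miR-99a 0.35 and miR-99b 0.27 at 7 days, miR-99a 0.14, miR-99b 0.13 and miR-10a minus miR-10b 0.11 between 7 and 2 days. Leaving out 1 array at a time also turned signs. At 2 days the ranges were -0.055 to 0.32 for miR-10b, -0.096 to 0.19 for miR-125a, -0.086 to 0.16 for miR-125a minus miR-125b, -0.062 to 0.046 for miR-125b, -0.19 to 0.13 for miR-99a, -0.10 to 0.22 for miR-99a minus miR-100 and -0.064 to 0.17 for miR-99b. At 7 days the ranges were -0.092 to 0.19 for miR-125a, -0.051 to 0.14 for miR-125a minus miR-125b, -0.041 to 0.067 for miR-125b and -0.25 to 0.063 for miR-99a minus miR-100. Between 7 and 2 days the ranges were -0.11 to 0.11 for miR-100, -0.11 to 0.28 for miR-10a, -0.075 to 0.11 for miR-10a minus miR-10b, -0.098 to 0.27 for miR-10b, -0.073 to 0.13 for miR-125a, -0.13 to 0.12 for miR-125a minus miR-125b and -0.017 to 0.072 for miR-125b. Where no sign turned, they were -0.25 to -0.018 for miR-100 at 2 days, and at 7 days 0.012 to 0.35 for miR-10b, -0.22 to -0.068 for miR-100, -0.32 to -0.081 for miR-99a and -0.28 to -0.13 for miR-99b. Between 7 and 2 days such ranges were -0.31 to -0.033 for miR-99a, -0.35 to -0.14 for miR-99b and -0.20 to -0.091 for miR-99a minus miR-100. Signal over background limits miR-196b and the other dim probes, and 3 arrays per group limit every value.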
